A study of Homo sapiens with 16 samples.

Results

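The genes described here encode nuclear subunits of the mitochondrial respiratory chain. They were taken from a list of 44 symbols, matched by symbol to the Ensembl identifiers of the count files, and a member was used when all 4 libraries of at least 1 group held 10 or more counts. All 44 members passed, and 13075 of the 54127 identifiers in the files passed the same filter. The lowest count of any member in any library was 49. The list holds 24 subunits of complex I, 4 of complex II, 6 of complex III and 10 of complex IV, the last including NDUFA4, which was first assigned to complex I. It holds no subunit of complex V, the ATP synthase, whose genes are described further on as a separate list.

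RNA was sequenced from HT55 and SW948, which are established colorectal cancer cell lines grown attached to plastic, per the study's methods in incubators with oxygen below that of air. Each line received either itraconazole at 5 µM, an azole antifungal that blocks lanosterol demethylation in fungi and Hedgehog signalling in animal cells, or DMSO, its solvent. RNA was taken on day 6 from 4 libraries in each of the 4 groups, and the labels name no genetic change in any group. The study followed how the drug acts on cycling and dormant colorectal tumour cells. The labels do not say how the 4 libraries of a group relate to cultures, and the study's methods describe 4 biological replicates.

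The respiratory chain passes electrons from NADH and succinate to oxygen through large protein complexes in the inner mitochondrial membrane. Complex I accepts electrons from NADH and complex II from succinate, both hand them to coenzyme Q, complex III moves them on to cytochrome c, and complex IV reduces oxygen to water. Complexes I, III and IV pump protons while doing so, and the gradient drives the ATP synthase. Some core subunits of these proton-pumping complexes are encoded by mitochondrial DNA, whereas complex II is made of nuclear products alone, so that most complexes need transcripts from both genomes. In the colonic epithelium respiration is known to be prominent in differentiated absorptive cells.

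Gene counts per library ran from 8269406 to 11110814, and reads with more than 1 alignment, which enter no gene, made up 22.0% to 27.9% of the reads accounted for in the count files. In SW948 this share was 22.0% to 23.6% with DMSO and 25.3% to 26.2% with itraconazole, without overlap. In HT55 it was 26.3% to 27.1% with DMSO and 24.1% to 27.9% with itraconazole. How this share bears on the results was not tested. Of the members, 29 have named pseudogenes, most of all COX6C with 17 and NDUFA5 and NDUFB4 with 12 each, and their counts may be incomplete. A further limit concerns the 13 members that overlap a counted gene on the opposite strand. The strand setting is not given in the sources used here, so their counts may hold reads of the partner. Shared reads may instead have been set aside as ambiguous, a class with 1.23% to 1.48% of the reads accounted for. All 10 epithelial markers were detected in every group, with summed levels of 8195 to 10989 CPM (counts scaled to 1000000 gene counts) on plain totals. Of 9 matched markers of other cell types, CD3E and COL3A1 stood at 0 in every library, and the summed level ran from 23.5 to 31.3 CPM in SW948 DMSO and from 104 to 121 CPM in SW948 itraconazole, mostly through CD68, a lysosomal protein of macrophages that other cells also make. In HT55 that sum ran from 29.9 to 34.7 CPM with DMSO and from 22.8 to 57.6 CPM with itraconazole, and its part in the results was not tested. Among the HT55 itraconazole libraries, replicate 3 lay nearest to the DMSO libraries for several members. The numbers of called members and the values of UQCRC2 and COX7B are given with and without it.

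Promoter sequences are shown for 6 members whose change with itraconazole in SW948 held under each scaling described below, chosen after their values had been seen. COX7C, UQCRC2, COX6B1 and NDUFB4 rose, and NDUFB10 and NDUFV2 fell. Each is the 250 bases before the annotated start of the gene, read 5′ to 3′ on the gene's own strand, from RefSeq on GRCh38.p14, with capitals for the letters of a searched motif. The positions are COX7C chr5:86617691-86617940, plus strand, UQCRC2 chr16:21953111-21953360, plus strand, COX6B1 chr19:35648073-35648322, plus strand, NDUFB4 chr3:120596086-120596335, plus strand, NDUFB10 chr16:1959288-1959537, plus strand and NDUFV2 chr18:9102449-9102698, plus strand.
COX7C: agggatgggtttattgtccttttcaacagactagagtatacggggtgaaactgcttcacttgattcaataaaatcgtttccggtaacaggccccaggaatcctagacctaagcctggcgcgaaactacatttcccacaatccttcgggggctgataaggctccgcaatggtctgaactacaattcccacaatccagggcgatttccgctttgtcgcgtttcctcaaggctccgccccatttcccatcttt
UQCRC2: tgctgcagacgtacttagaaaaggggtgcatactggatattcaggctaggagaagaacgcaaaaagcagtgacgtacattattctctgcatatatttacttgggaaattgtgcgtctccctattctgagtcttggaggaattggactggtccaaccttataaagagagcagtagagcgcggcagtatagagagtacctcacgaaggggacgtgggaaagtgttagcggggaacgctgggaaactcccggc
COX6B1: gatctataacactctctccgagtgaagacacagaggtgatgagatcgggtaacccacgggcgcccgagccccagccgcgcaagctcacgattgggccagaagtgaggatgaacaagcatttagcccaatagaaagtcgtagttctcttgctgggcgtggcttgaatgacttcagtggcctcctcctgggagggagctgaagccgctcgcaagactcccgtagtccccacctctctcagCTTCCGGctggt
NDUFB4: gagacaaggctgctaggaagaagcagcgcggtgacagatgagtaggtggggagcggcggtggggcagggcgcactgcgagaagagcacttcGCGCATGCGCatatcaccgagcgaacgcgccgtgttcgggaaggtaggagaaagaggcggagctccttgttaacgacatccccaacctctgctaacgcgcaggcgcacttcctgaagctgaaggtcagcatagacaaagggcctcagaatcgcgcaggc
NDUFB10: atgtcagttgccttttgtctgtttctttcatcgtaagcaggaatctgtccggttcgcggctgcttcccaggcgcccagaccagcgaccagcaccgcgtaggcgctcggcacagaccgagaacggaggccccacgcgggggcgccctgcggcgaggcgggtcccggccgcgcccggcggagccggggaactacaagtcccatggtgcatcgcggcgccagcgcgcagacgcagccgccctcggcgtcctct
NDUFV2: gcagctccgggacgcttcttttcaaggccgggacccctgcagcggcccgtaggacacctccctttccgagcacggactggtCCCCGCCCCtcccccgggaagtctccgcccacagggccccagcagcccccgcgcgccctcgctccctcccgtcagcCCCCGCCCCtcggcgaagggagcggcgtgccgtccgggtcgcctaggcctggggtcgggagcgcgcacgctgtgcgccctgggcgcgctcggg

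The motifs were searched on both strands, overlaps allowed, in windows of 300 bases that also take in 50 bases after the start. A window was found for 37 of the 44 members. The NRF1 core, GCGCATGC, bound by a factor named for its sites in respiratory genes, was present in 10 of the 37 members (27.0%) and in 3.68% of 27305 genes. In NDUFB4 it lies 159 bases before the start on the plus strand and 157 bases before it on the minus strand, since the site is nearly a palindrome and its 2 matches overlap. The ETS core CCGGAAG, read by GABPA among others, was present in 11 members (29.7%) against 12.2% of all genes, and in COX6B1 it lies 12 bases before the start on the minus strand. The YY1 core GATGGCGG was present in 8 members (21.6%) against 2.85% of all genes. Sp1, as GGGGCGGGG, was found in 7 members (18.9%) against 18.5% of all genes, and NDUFV2 has matches at 169 and 93 bases before the start on the minus strand. The CREB site TGACGTCA was found in NDUFA10 and SDHB alone, 5.41% of the members with a window against 2.25% of all genes. COX7C, UQCRC2 and NDUFB10 hold none of the 5 motifs in this window. These are matches of letters and describe the members beside other genes without a test.

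Levels were compared between genes per length, as CPM divided by the length of the canonical transcript in kilobases (RPKM). The cytochrome c oxidase genes had the highest median. In HT55 DMSO the median RPKM was 200 over complex IV, 91.7 over complex III, 66.8 over complex I and 54.99 over complex II, and in SW948 DMSO it was 185, 56.3, 58.9 and 74.1 in the same order. COX4I1, the largest nuclear subunit of complex IV, had the highest level in HT55 DMSO at 427 ± 2.42 RPKM (SD, n = 4), above COX5B at 318 ± 14.4 and COX6B1 at 312 ± 21.1, which overlapped each other. In SW948 DMSO the order was different: COX5B at 337 ± 18.1 RPKM, COX8A at 325 ± 9.07 and COX6B1 at 305 ± 19.0 lay within each other's spread, and COX4I1 stood at 223 ± 17.8. The highest complex I gene in the DMSO groups of both lines was NDUFB9, at 195 ± 2.07 RPKM in HT55 DMSO and 184 ± 7.74 in SW948 DMSO. The lowest was NDUFA9, at 5.01 ± 0.305 and 3.23 ± 0.229 RPKM. NDUFA9, UQCRB, NDUFS1 and NDUFA5 have canonical transcripts of 5496 to 11660 bases against a median of 875.5 bases over the members, so their low levels per length depend on which transcript is taken.

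**Figure D1:**
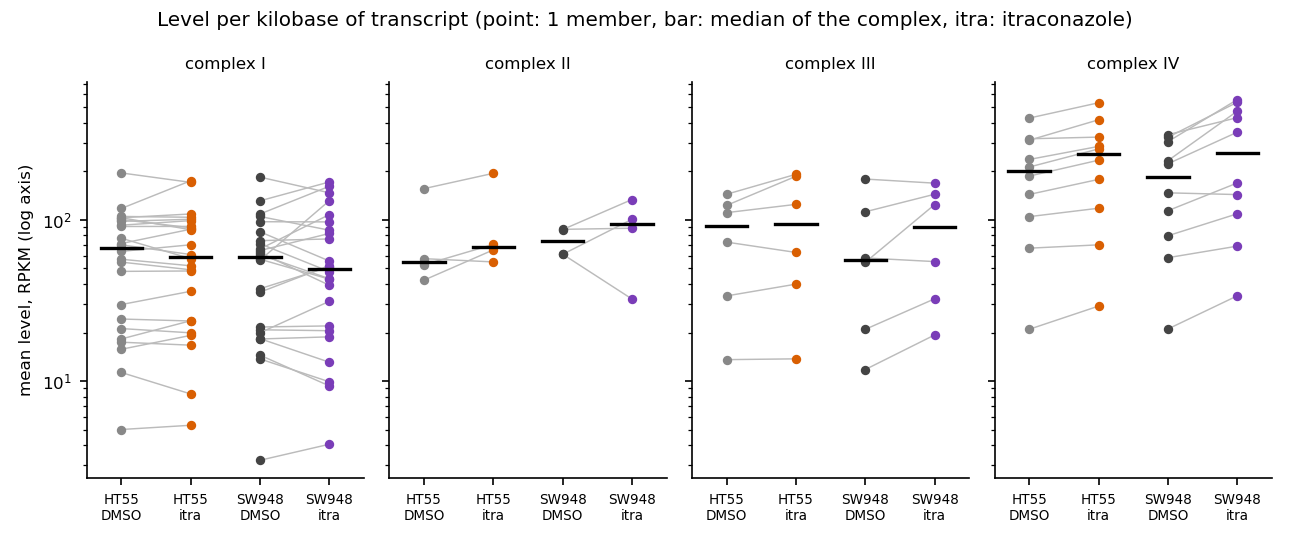
Mean level per kilobase of transcript (RPKM, logarithmic axis) of each of the 44 members in the 4 groups, with 1 panel per complex. Points are members, grey lines join DMSO and itraconazole within a line, and the black bar is the median of the complex, which for complex IV ran from 185 RPKM in SW948 DMSO to 259 RPKM in SW948 itraconazole.

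With itraconazole, 7 of 10 complex IV members rose in HT55 and 9 of 10 in SW948 under TMM scaling. Fewer complex IV members, 2 and 6, rose under plain library totals. Complex I had members that rose and members that fell in both lines, in SW948 at shares near those of all genes. TMM scaling sets the bulk of the genes to no change. Under it, 18 members rose and 5 fell in HT55 at an adjusted p under 0.05 (edgeR's quasi-likelihood test with Benjamini-Hochberg adjustment over all genes tested). Of all 12133 genes tested, 27.5% rose and 26.5% fell. In SW948 24 members rose and 11 fell, against 38.9% and 41.3% of 12505 genes. Under plain library totals, 7 members rose and 13 fell in HT55 (18.8% and 38.8% of all genes) and 15 rose and 20 fell in SW948 (25.1% and 54.6%). The median log2 fold change of the members was 0.087 in HT55 under TMM and -0.080 under plain totals, where all genes had medians of -0.015 and -0.18. In SW948 it was 0.31 under TMM and -0.026 under plain totals, beside -0.025 and -0.35 for all genes. The direction of the members' median therefore turned with the scaling in both lines. Its place above the median of all genes stayed, but the change of scaling could hardly alter that place. Plain totals move all genes of a line by nearly the same amount. In bulk RNA, fewer cells of one kind and less RNA per cell cannot be told apart.

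Calls that held under TMM, plain totals and a correction for GC content and length numbered 7 up and 4 down in HT55, or 15.9% and 9.09% of the members, where 18.6% and 23.6% of all genes met the same rule. In SW948 there were 15 up and 11 down, or 34.1% and 25.0%, against 25.1% and 39.5% of all genes. Every one of the 8 libraries of a line was left out in turn. In HT55, 13 of the 18 calls upward and 2 of the 5 downward held in all of these fits, and in SW948 22 of 24 and 11 of 11 did. The number that fell in HT55 dropped from 5 to 2 when any DMSO replicate (1, 2, 3 or 4) or itraconazole replicate 4 was left out, and without itraconazole replicate 3 the counts became 22 up and 6 down. Shares of all genes in the fits without 1 library are not given here, so the members are not compared with other genes in them. CYC1 (3 fits) and NDUFB4, NDUFS3, COX6C and NDUFV2 (1 fit each) were called in HT55 only when a library was left out. Values of the 4 itraconazole libraries lay wholly above those of the 4 DMSO libraries for 13 members in HT55 and wholly below them for 7, while 25.0% and 24.4% of all genes did so. In SW948 this held for 24 and 11 members, with 37.3% and 37.4% of all genes. Under plain totals the numbers were 5 above and 14 below in HT55 (16.8% and 35.6%) and 14 above and 19 below in SW948 (23.1% and 51.8%).

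**Figure D2:**
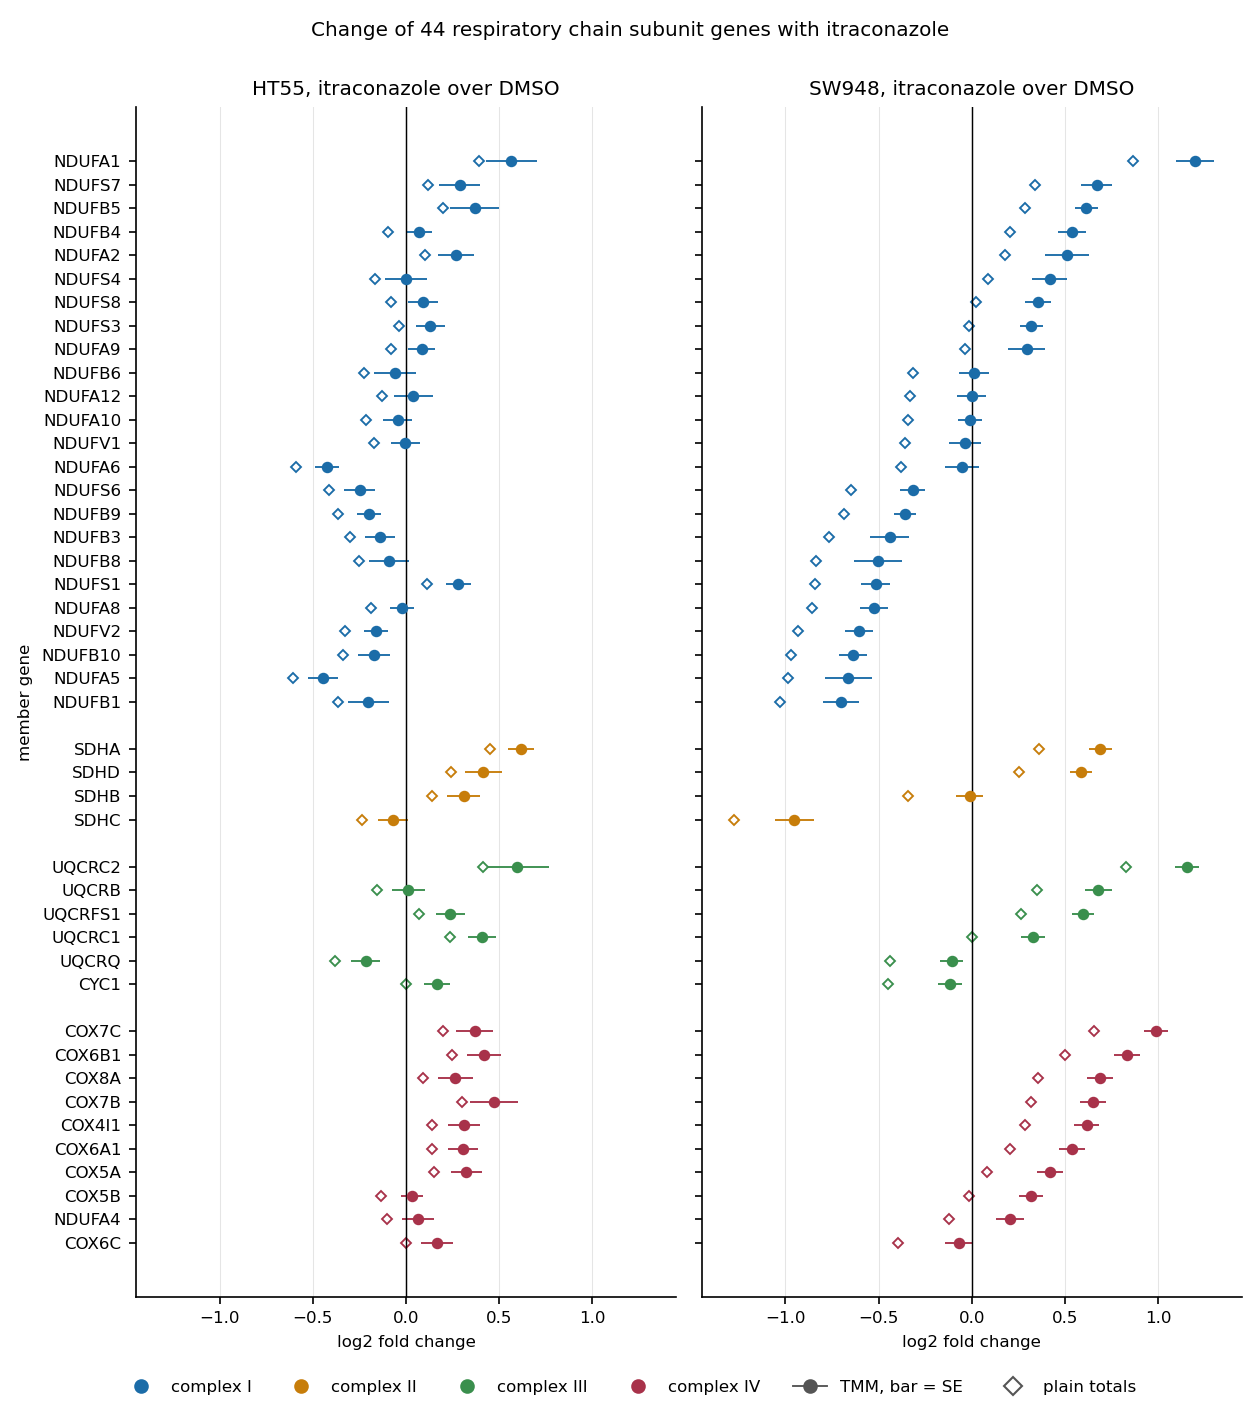
Log2 fold change of itraconazole over DMSO for each member in HT55 (left) and SW948 (right), sorted within complexes by the SW948 value. Filled circles with bars are TMM values with their SE and open diamonds are plain totals, which lie further left throughout, so that complex IV, with a TMM median of 0.31 in HT55 and 0.58 in SW948, has plain medians of 0.14 and 0.25.

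Complex I members moved in both directions. Of the 24 subunits 5 rose and 4 fell in HT55 (median log2 fold change -0.012, or -0.18 under plain totals with 1 up and 11 down), and 9 rose and 10 fell in SW948 (median -0.023, or -0.35 with 4 up and 15 down). In SW948 these are 37.5% up and 41.7% down, close to the 38.9% and 41.3% of all genes tested there. In HT55 the shares of 20.8% and 16.7% were both under the 27.5% and 26.5% of all genes. Its hydrophilic arm is built of the N module, which oxidises NADH, and the Q module, which reduces coenzyme Q, and the membrane arm pumps protons. In SW948 the N module had 2 up and 3 down of 7, the Q module 4 up and 1 down of 6, and the membrane arm 3 up and 6 down of 11. In HT55 the same modules had 2 and 1, 1 and 2, and 2 and 1.

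In the N module, NDUFS1, the largest core subunit and carrier of several of the iron-sulphur clusters (chr2:206979541-207024233, minus strand, on GRCh37 as are all gene positions that follow), moved in opposite directions in the 2 lines. In HT55 it stood at 179, 186, 180.1 and 189 CPM with DMSO and at 216, 233, 204 and 242 CPM with itraconazole. All treated libraries lay above all controls, with a log2 fold change of 0.28 ± 0.065 (SE, adjusted p = 0.0045), although under plain totals the value was 0.11 (adjusted p = 0.11). In SW948 the DMSO libraries held 211, 216, 218 and 208 CPM and the itraconazole libraries 175, 140.2, 135 and 161 CPM. All treated libraries lay below all controls, and the change of -0.52 ± 0.078 (SE, adjusted p = 2.8e-05) kept its call under plain totals at -0.84. NDUFV1, which binds FMN and takes the electrons from NADH, passed the test in neither line, with log2 fold changes of -0.0030 ± 0.079 and -0.035 ± 0.085, but was called lower in both under plain totals, at -0.17 and -0.36. Its partner NDUFV2, an iron-sulphur protein, fell in SW948 by 0.61 ± 0.075 on the log2 scale and had -0.16 ± 0.066 (SE, adjusted p = 0.060) in HT55, where the groups did not overlap. NDUFS6, a zinc-binding accessory subunit, fell in both lines, by 0.25 ± 0.084 in HT55 and 0.32 ± 0.067 in SW948. Its HT55 call was lost without DMSO replicate 1, 2, 3 or 4 or itraconazole replicate 2 or 4 (adjusted p from 0.054 to 0.10).

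The other accessory subunits of the N module went up or did not pass. NDUFA2 rose in both lines under TMM, by 0.27 ± 0.10 in HT55 and 0.51 ± 0.12 in SW948 on the log2 scale, and under plain totals passed in neither. Its HT55 call was also lost without DMSO replicate 2, 3 or 4 or itraconazole replicate 1, 2 or 4 (adjusted p from 0.055 to 0.10). TMCO6 and IK overlap NDUFA2, so its counts may include their reads or lack shared ones. NDUFS4, mutated in Leigh syndrome and needed to join the N module to the rest, rose in SW948 alone by 0.42 ± 0.095, with 0.0018 ± 0.11 in HT55, and lost the SW948 call under plain totals. NDUFA12 stood at 0.039 ± 0.10 on the log2 scale in HT55 and at -0.0011 ± 0.080 in SW948, neither past the test, and -0.33 with a call in SW948 under plain totals.

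In the Q module, NDUFA5 fell in both lines. NDUFA5, an accessory subunit (chr7:123177051-123197958, minus strand, with 12 named pseudogenes), stood at 62.7, 66.0, 58.6 and 61.2 CPM in HT55 DMSO and at 48.3, 41.4, 50.3 and 42.8 CPM in HT55 itraconazole. No treated library reached the lowest control, and the log2 fold change was -0.44 ± 0.082 (SE, adjusted p = 0.0012). In SW948 it went from 83.5, 81.3, 79.5 and 74.0 CPM to 57.2, 45.3, 37.9 and 64.7 CPM, again without overlap, a change of -0.66 ± 0.12 (SE, adjusted p = 2.2e-04). NDUFA6, a LYR-motif subunit, fell in HT55 by 0.42 ± 0.063, and in SW948, where its control level was much lower, it had -0.053 ± 0.092, with -0.38 and a call under plain totals. Core subunits of this module moved the other way in SW948 under TMM. NDUFS7 and NDUFS8, both iron-sulphur proteins on the path to coenzyme Q, rose by 0.67 ± 0.083 and 0.35 ± 0.069, and NDUFS3, another core subunit whose locus overlaps PTPMT1, KBTBD4 and CELF1, rose by 0.32 ± 0.061. Of these, only NDUFS7 kept its call under plain totals (NDUFS8 0.021, NDUFS3 -0.012). In HT55 NDUFS7 rose by 0.29 ± 0.11, a call lost without any 1 of the DMSO libraries or itraconazole replicate 1 or 2 (adjusted p from 0.062 to 0.13), while NDUFS8 and NDUFS3 had 0.089 ± 0.080 and 0.13 ± 0.079. NDUFA9, which sits near the coenzyme Q site, rose in SW948 by 0.29 ± 0.10 under TMM, but not without DMSO replicate 2 or itraconazole replicate 4 (adjusted p from 0.052 to 0.059), and had 0.084 ± 0.071 in HT55.

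In the membrane arm, NDUFA1, a small X-linked subunit needed to assemble complex I (chrX:119005795-119010625, plus strand), had the highest fold change of the complex in both lines. HT55 DMSO libraries held 49.2, 52.3, 48.5 and 47.9 CPM and HT55 itraconazole libraries 79.0, 94.0, 56.4 and 64.6 CPM. The groups did not overlap, and the log2 fold change was 0.56 ± 0.14 (SE, adjusted p = 0.0055). SW948 DMSO libraries held 22.8, 25.6, 23.7 and 22.4 CPM and SW948 itraconazole libraries 53.0, 49.3, 51.0 and 67.9 CPM. Every treated library lay above the highest control, at a log2 fold change of 1.20 ± 0.10 (SE, adjusted p = 9.5e-08), and 0.87 under plain totals.

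NDUFB1, another small membrane subunit (chr14:92582466-92588261, minus strand), was the lowest of the complex in SW948. Its HT55 values were 20.5, 20.2, 23.1 and 24.9 CPM with DMSO and 16.6, 20.1, 20.3 and 20.3 CPM with itraconazole. These groups overlapped and the change of -0.20 ± 0.11 (SE, adjusted p = 0.14) did not pass, though under plain totals it did at -0.37. In SW948 the values went from 20.5, 19.8, 19.1 and 19.9 CPM to 11.8, 11.9, 12.2 and 13.9 CPM, without overlap and by -0.70 ± 0.10 (SE, adjusted p = 1.1e-05). NDUFA8, a subunit of the intermembrane space side (chr9:124906337-124922058, minus strand), stood at 81.9, 84.5, 86.1 and 84.9 CPM in HT55 DMSO and at 88.6, 87.5, 79.5 and 77.9 CPM in HT55 itraconazole. Treated and control libraries overlapped, at -0.021 ± 0.063 (SE, adjusted p = 0.79), and -0.19 with a call under plain totals. In SW948 NDUFA8 went from 50.0, 45.7, 51.2 and 48.6 CPM to 37.4, 31.6, 34.5 and 35.2 CPM, all treated libraries lower, at -0.53 ± 0.075 (SE, adjusted p = 1.6e-05).

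Other membrane-arm subunits that fell in SW948 had log2 fold changes of -0.64 ± 0.076 for NDUFB10, -0.50 ± 0.13 for NDUFB8, -0.44 ± 0.10 for NDUFB3 and -0.36 ± 0.059 for NDUFB9, and all of these calls held under plain totals. NDUFB10 faces the intermembrane space, NDUFB8 is often used as a marker of assembled complex I and its gene overlaps HIF1AN, and NDUFB3 and NDUFB9 are small accessory subunits. Of these, NDUFB9 alone passed in HT55 under TMM, by -0.20 ± 0.066 (SE, adjusted p = 0.025), and the call was lost without any 1 DMSO library or itraconazole replicate 4 (adjusted p from 0.067 to 0.084). NDUFB10, NDUFB8 and NDUFB3 had -0.17 ± 0.086 for NDUFB10, -0.090 ± 0.11 for NDUFB8 and -0.14 ± 0.081 for NDUFB3 in HT55. In the opposite direction, NDUFB5 and NDUFB4, both accessory subunits of the distal membrane arm, rose in SW948 by 0.61 ± 0.062 and 0.54 ± 0.075. In HT55 NDUFB5 rose by 0.37 ± 0.13, but not without DMSO replicate 1, 2 or 3 or itraconazole replicate 1 or 2 (adjusted p from 0.069 to 0.095), and NDUFB4 had 0.072 ± 0.068. NDUFA10 and NDUFB6 passed in neither line under TMM, with -0.045 ± 0.078 and -0.061 ± 0.11 in HT55 and -0.011 ± 0.063 and 0.011 ± 0.082 in SW948, but plain totals called both lower in SW948, at -0.34 and -0.32.

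In complex II, succinate dehydrogenase, the subunits parted. Of 4, 3 rose in HT55 (median log2 fold change 0.36, and 0.19 under plain totals with 2 up and 1 down), and 2 rose and 1 fell in SW948 (median 0.29, turning to -0.044 under plain totals with 2 up and 2 down). Over all genes 27.5% rose and 26.5% fell in HT55 (18.8% and 38.8% under plain totals). In SW948 38.9% rose and 41.3% fell (25.1% and 54.6%). SDHA, the flavoprotein that oxidises succinate (chr5:218418-257197, plus strand, with 6 named pseudogenes), stood at 116, 109.5, 116 and 113 CPM in HT55 DMSO and at 181, 192, 157 and 172 CPM in HT55 itraconazole. Every treated library lay above every control, and the log2 fold change was 0.62 ± 0.070 (SE, adjusted p = 6.4e-05). In SW948 SDHA went from 165, 151, 173 and 168 CPM to 269, 263, 273 and 279 CPM, again with no overlap and by 0.69 ± 0.061 (SE, adjusted p = 1.3e-07). SDHC, which with SDHD anchors the enzyme in the membrane (chr1:161284171-161332996, plus strand), stood at 73.1, 72.9, 71.2 and 83.2 CPM in HT55 DMSO and at 71.7, 80.0, 69.4 and 65.6 CPM in HT55 itraconazole. These groups overlapped, with a change of -0.070 ± 0.080 (SE, adjusted p = 0.48), and -0.24 with a call under plain totals. In SW948 the values were 80.9, 77.9, 78.2 and 83.2 CPM with DMSO and 48.1, 33.7, 37.4 and 49.6 CPM with itraconazole. This was the largest fall of any member in either line, at -0.95 ± 0.10 (SE, adjusted p = 1.2e-06), and -1.28 under plain totals. The other anchor, SDHD, rose by 0.41 ± 0.10 in HT55 and 0.59 ± 0.061 in SW948. SDHB, the iron-sulphur subunit, rose in HT55 by 0.31 ± 0.089, a call not kept under plain totals, and had -0.011 ± 0.073 in SW948, where plain totals called it lower at -0.34.

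Complex III, the cytochrome bc1 complex, rose in part. Of 6 subunits, 3 rose and 1 fell in HT55 (median log2 fold change 0.20, or 0.033 under plain totals with 2 up and 1 down), and 4 rose with none down in SW948 (median 0.46, or 0.13 with 3 up and 2 down). All genes had 27.5% up and 26.5% down in HT55 (18.8% and 38.8% under plain totals). In SW948 they had 38.9% up and 41.3% down (25.1% and 54.6%). UQCRC2, a core protein on the matrix side (chr16:21964609-21994981, plus strand), stood at 230.4, 250.3, 233 and 227 CPM in HT55 DMSO and at 405, 471, 230.1 and 319 CPM in HT55 itraconazole. Replicate 3 of the treated libraries lay among the controls and the other treated libraries lay above them, at a log2 fold change of 0.59 ± 0.18 (SE, adjusted p = 0.015). It ranged from 0.43 without itraconazole replicate 2 to 0.77 without itraconazole replicate 3, and kept its call without any 1 library. In SW948 UQCRC2 went from 111, 101, 98.1 and 108 CPM to 241, 235, 223 and 254 CPM, more than double in every treated library, at 1.16 ± 0.066 (SE, adjusted p = 1.8e-09). The other core protein, UQCRC1, rose by 0.41 ± 0.074 in HT55 and 0.33 ± 0.066 in SW948, and in SW948 its value under plain totals was -0.0012. UQCRFS1, the Rieske iron-sulphur protein, rose by 0.60 ± 0.059 in SW948 and by 0.24 ± 0.078 in HT55, the latter not without DMSO replicate 2 or 3 or itraconazole replicate 1 or 2 (adjusted p from 0.058 to 0.063).

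The small subunits UQCRB and UQCRQ and the electron carrier CYC1 were not among those that rose in HT55. UQCRB, which lies near the coenzyme Q site (chr8:97235175-97247774, minus strand), stood at 117, 116, 108 and 119 CPM in HT55 DMSO and at 127, 132, 102 and 104 CPM in HT55 itraconazole. The 2 groups overlapped, at 0.012 ± 0.090 (SE, adjusted p = 0.92). In SW948 UQCRB went from 105, 99.8, 94.3 and 99.8 CPM to 161, 165, 146 and 181 CPM with no overlap, at 0.68 ± 0.071 (SE, adjusted p = 7.9e-07). UQCRQ, which binds next to cytochrome b (chr5:132202322-132204539, plus strand), held 113, 118, 108 and 119 CPM in HT55 DMSO and 104, 106, 99.4 and 85.4 CPM in HT55 itraconazole. All treated libraries were lower, at -0.22 ± 0.077 (SE, adjusted p = 0.034), but the call was lost without any 1 DMSO library or itraconazole replicate 4 (adjusted p from 0.051 to 0.11). In SW948 UQCRQ had 89.5, 93.8, 93.2 and 88.5 CPM with DMSO and 80.6, 88.4, 86.8 and 90.7 CPM with itraconazole, overlapping groups with a change of -0.11 ± 0.061 (SE, adjusted p = 0.12), called lower under plain totals at -0.44. CYC1, cytochrome c1 (chr8:145149942-145152428, plus strand), held 131, 132, 141 and 123 CPM in HT55 DMSO and 157, 158, 139 and 139.9 CPM in HT55 itraconazole. Its change of 0.17 ± 0.069 (SE, adjusted p = 0.063) did not pass, although 3 of the 8 fits without 1 library called CYC1. In SW948 CYC1 held 225, 191, 229 and 208 CPM and 202, 205, 196 and 201 CPM, also overlapping, at -0.12 ± 0.066 (SE, adjusted p = 0.12), called lower under plain totals at -0.45.

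Complex IV, cytochrome c oxidase, had no member that fell under TMM in either line. Of 10, 7 rose in HT55 (median log2 fold change 0.31, or 0.14 under plain totals with 2 up and none down). In SW948 9 rose (median 0.58, or 0.25 with 6 up and 1 down). Among all genes tested, 27.5% rose and 26.5% fell in HT55 (18.8% and 38.8% under plain totals). The corresponding SW948 shares were 38.9% and 41.3% (25.1% and 54.6%). Under plain totals in HT55, the 2 of 10 that rose were thus close to the share of all genes, whereas none fell. The nuclear subunits surround a catalytic core that mitochondrial DNA encodes, and several bear on its stability or regulation. COX7C, a small subunit of the membrane part (chr5:85913745-85916779, plus strand), stood at 130.3, 142, 123 and 139 CPM in HT55 DMSO and at 182, 203, 144 and 162 CPM in HT55 itraconazole. The groups did not overlap, with a log2 fold change of 0.37 ± 0.10 (SE, adjusted p = 0.010) that under plain totals became 0.20 (adjusted p = 0.063). In SW948 COX7C went from 149.5, 142, 149 and 145 CPM to 267, 311, 294 and 316 CPM. This was the highest rise of the complex in SW948, at 0.99 ± 0.065 (SE, adjusted p = 7.7e-09), and 0.65 under plain totals. COX7B, encoded on the X chromosome (chrX:77154937-77162873, plus strand), had the highest rise of the complex in HT55. It held 48.7, 47.4, 54.9 and 53.9 CPM with DMSO and 71.7, 89.1, 54.3 and 70.0 CPM with itraconazole there, where replicate 3 lay among the controls, at 0.47 ± 0.13 (SE, adjusted p = 0.011). The value was 0.35 without itraconazole replicate 2 and 0.60 without replicate 3, with a call in both fits. In SW948 it went from 52.0, 51.3, 53.8 and 48.6 CPM to 75.7, 86.4, 80.7 and 87.4 CPM without overlap, at 0.65 ± 0.068 (SE, adjusted p = 7.8e-07).

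COX5B, a zinc-binding subunit on the matrix side (chr2:98262525-98264846, plus strand, with 7 named pseudogenes), had the lowest fold change of the complex in HT55. Its HT55 values were 214, 229.7, 225 and 208 CPM with DMSO and 229.9, 228, 229 and 213 CPM with itraconazole. The groups overlapped, at 0.031 ± 0.060 (SE, adjusted p = 0.68). In SW948 it went from 239.8, 214, 238 and 239 CPM to 276, 307, 312 and 292 CPM and passed at 0.32 ± 0.065 (SE, adjusted p = 4.6e-04), while under plain totals it had -0.016 (adjusted p = 0.79). COX6C, a small membrane subunit (chr8:100885428-100905935, minus strand, with 17 named pseudogenes), was the only member of the complex to pass under TMM in neither line. In HT55, 1 of the 8 fits without 1 library called COX6C. It held 78.2, 79.6, 75.9 and 77.7 CPM in HT55 DMSO, 91.9, 102, 77.3 and 80.3 CPM in HT55 itraconazole, 109.8, 108, 111 and 109 CPM in SW948 DMSO and 104, 112, 90.9 and 119 CPM in SW948 itraconazole. Both pairs of groups overlapped, at 0.17 ± 0.086 (SE, adjusted p = 0.12) in HT55 and -0.068 ± 0.076 (SE, adjusted p = 0.42) in SW948, the latter called lower under plain totals at -0.40.

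Among the remaining complex IV genes, COX6B1, which faces the intermembrane space near the cytochrome c site, rose by 0.42 ± 0.092 in HT55 and 0.83 ± 0.069 in SW948, and both calls held under plain totals. COX8A, a small membrane subunit, and COX4I1, the subunit at which ATP is known to inhibit the enzyme, rose by 0.69 ± 0.069 and 0.62 ± 0.067 in SW948 and by 0.26 ± 0.093 and 0.31 ± 0.088 in HT55. The HT55 call of COX8A was lost without any 1 DMSO library or itraconazole replicate 1 or 2 (adjusted p from 0.053 to 0.077). COX6A1, the isoform of subunit VIa found outside striated muscle, and COX5A, a matrix-side subunit, rose by 0.54 ± 0.070 and 0.42 ± 0.069 in SW948 and by 0.31 ± 0.078 and 0.32 ± 0.083 in HT55. NDUFA4 rose in SW948 by 0.20 ± 0.076, but not without DMSO replicate 2 or 3 or itraconazole replicate 4 (adjusted p from 0.064 to 0.082), and had 0.065 ± 0.087 in HT55. Under plain totals COX4I1, COX5A, COX6A1, COX7C and COX8A were not called in HT55, and COX5A, COX5B and NDUFA4 were not called in SW948.

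**Figure D3:**
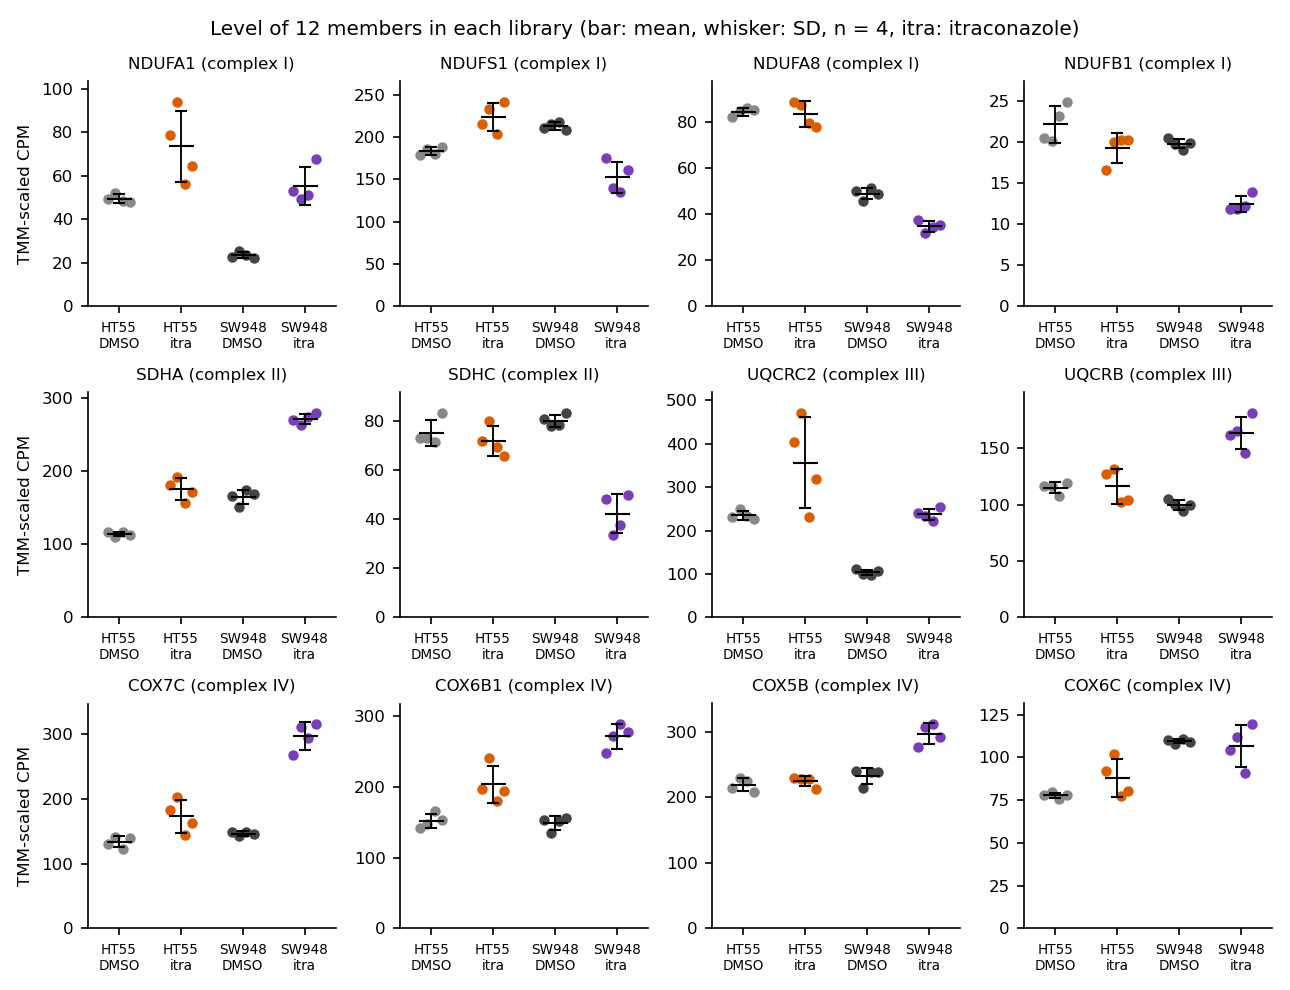
TMM-scaled CPM of 12 members in each of the 16 libraries, 1 panel per gene, with points for libraries and the mean ± SD (n = 4) in black. SDHC lies between 33.7 and 49.6 CPM in SW948 itraconazole and between 65.6 and 83.2 CPM in the other 3 groups, and NDUFA1, UQCRC2, COX7C and COX6B1 are higher with itraconazole in SW948 with no overlap.

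The division of counts between the complexes within a library does not depend on any scaling factor, and is given as a description. The 44 members together held 0.454 ± 0.0049% of the gene counts in HT55 DMSO (SD, n = 4), 0.465 ± 0.033% in HT55 itraconazole, 0.469 ± 0.017% in SW948 DMSO and 0.463 ± 0.023% in SW948 itraconazole. The total share thus overlapped between treated and control libraries in both lines. Within it, complex I held 35.5% to 35.8% of the member counts in HT55 DMSO and 30.1% to 32.9% in HT55 itraconazole. In SW948 complex I went from between 37.4% and 38.0% to between 29.5% and 31.1%. Complex IV moved the other way, from between 33.8% and 34.2% to between 34.7% and 36.2% in HT55, and from between 32.1% and 32.6% to between 36.6% and 39.4% in SW948. The ratio of complex IV counts to complex I counts was 0.944 to 0.964 in HT55 DMSO and 1.08 to 1.20 in HT55 itraconazole. In SW948 it was 0.846 to 0.868 with DMSO and 1.18 to 1.34 with itraconazole. Every SW948 DMSO library thus lay below every HT55 DMSO library, while the treated libraries of the lines overlapped.

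**Figure D4:**
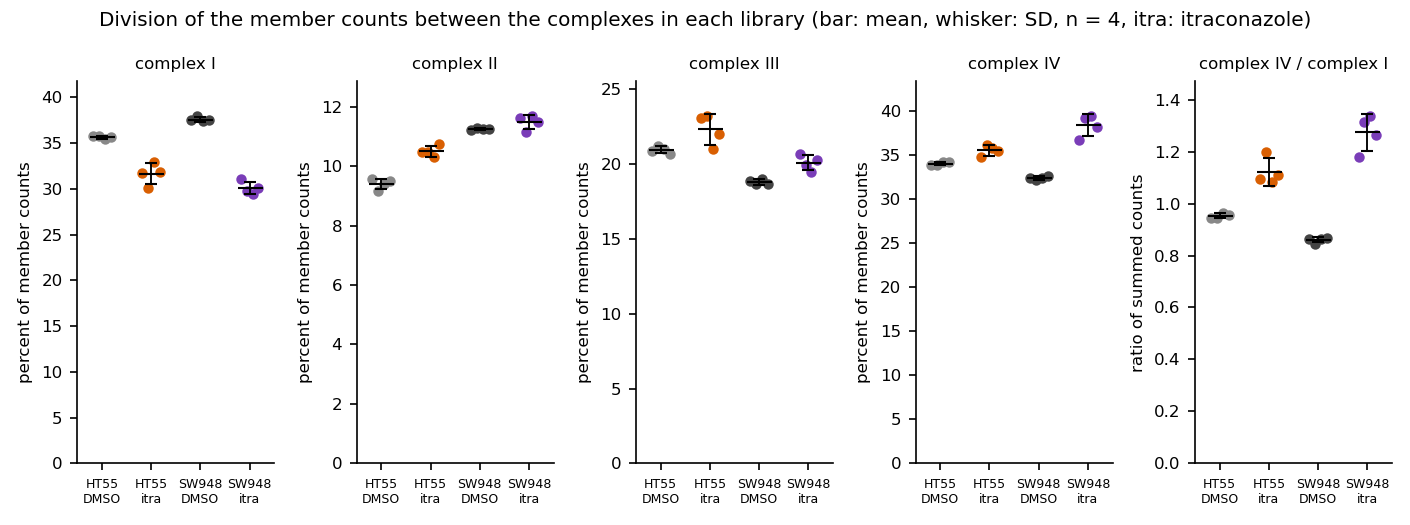
Percent of the summed member counts held by complexes I to IV in each library, and the ratio of complex IV to complex I counts, with points for libraries and mean ± SD (n = 4) in black, all axes from 0. The complex I share is lower and the complex IV share higher in every itraconazole library than in every DMSO library of the same line.

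Ratios of chosen pairs inside a complex differed between treated and control libraries, except NDUFS1 over NDUFA1 in HT55. SDHC counts per SDHA count were 0.612 to 0.736 in HT55 DMSO and 0.382 to 0.443 in HT55 itraconazole, and 0.451 to 0.516 and 0.128 to 0.178 in the corresponding SW948 groups. Both subunits belong to a complex in which each is present once. UQCRC2 counts per UQCRQ count were 1.91 to 2.16 and 2.32 to 4.45 in HT55, and 1.05 to 1.23 and 2.57 to 2.99 in SW948. For NDUFS1 over NDUFA1 the SW948 groups had 8.43 to 9.29 with DMSO and 2.36 to 3.30 with itraconazole. The HT55 groups overlapped, at 3.56 to 3.94 and 2.48 to 3.74. These pairs were chosen after the values had been seen, so the shifts carry no test.

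The response differed between the lines for many genes, the members among them. The interaction of line and treatment, which tests the SW948 change minus the HT55 change on all 16 libraries, called 15 members higher in SW948 and 8 lower (24.8% and 29.1% of 13249 genes), and 6 and 13 under plain totals (17.3% and 37.2%). All 6 called complex IV members (COX4I1, COX5B, COX6A1, COX6B1, COX7C and COX8A) were higher in SW948 under TMM, while under plain totals 3 complex IV members were higher and 1 was lower, and with the GC and length correction 1 was higher and 1 lower. Over all members that correction gave 8 higher and 13 lower (26.0% and 29.4% of all genes). In complex I the calls were 6 higher and 5 lower, in complex II none and 2, and in complex III 3 and 1. The smallest p-values belonged to NDUFS1, with an interaction of -0.77 ± 0.11 (SE, adjusted p = 8.1e-06) on the log2 scale, SDHC with -0.85 ± 0.14 (SE, adjusted p = 5.3e-05), UQCRB with 0.70 ± 0.12 (SE, adjusted p = 7.1e-05), COX7C with 0.65 ± 0.12 (SE, adjusted p = 2.0e-04) and NDUFA8 with -0.48 ± 0.10 (SE, adjusted p = 4.0e-04). All 5 kept direction and call under plain totals and the GC correction. In all, 12 interactions held under these 3 scalings, 4 of them higher in SW948 (NDUFA1, NDUFB4, UQCRB and COX7C) and 8 lower (NDUFA8, NDUFB1, NDUFB10, NDUFS1, NDUFV2, SDHB, SDHC and CYC1). These are 9.09% and 18.2% of the members, both below the 17.2% and 27.3% of all genes that held in the same way.

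Some interaction calls were lost when 1 library was left out. That of NDUFS4 was lost without SW948 itraconazole replicate 4 (adjusted p = 0.050) and that of NDUFS7 without HT55 itraconazole replicate 4 (adjusted p = 0.052). NDUFS8 lost its call without HT55 DMSO replicate 1 or 2, HT55 itraconazole replicate 4, SW948 DMSO replicate 2 or SW948 itraconazole replicate 2 or 3 (adjusted p from 0.053 to 0.069). SDHB lost its call in 11 of the 16 fits and kept it without HT55 itraconazole replicate 3 or 4, SW948 DMSO replicate 2 or 4 or SW948 itraconazole replicate 3. COX6A1 lost its call in 12 fits and kept it without HT55 DMSO replicate 3, HT55 itraconazole replicate 2, SW948 DMSO replicate 1 or SW948 itraconazole replicate 1. CYC1 lost its call in 8 fits, those without HT55 DMSO replicate 1, 2 or 4, HT55 itraconazole replicate 1 or 2, SW948 DMSO replicate 1 or 3 or SW948 itraconazole replicate 3. The adjusted p in the fits that lost the call ran from 0.053 to 0.097 for SDHB, from 0.053 to 0.075 for CYC1 and from 0.053 to 0.10 for COX6A1.

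**Figure D5:**
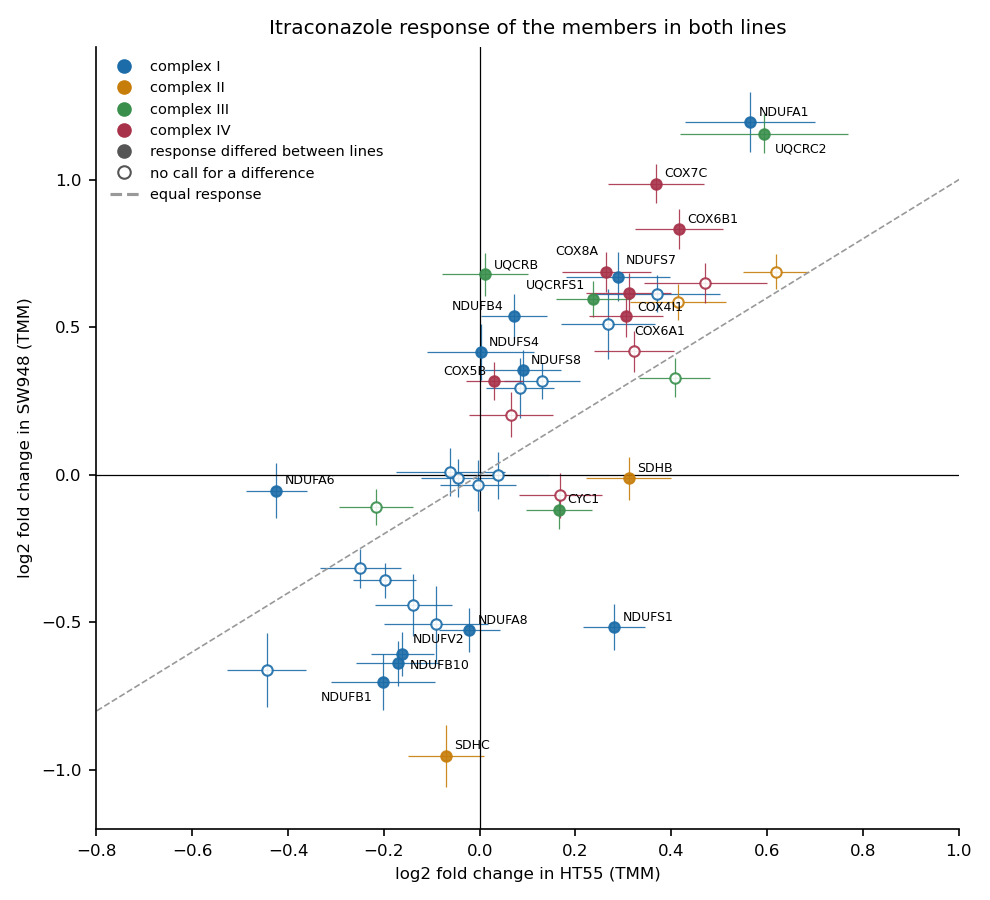
Log2 fold change of each member with itraconazole in HT55 (horizontal axis) against SW948 (vertical axis), both under TMM with SE bars, coloured by complex. Filled points are the 23 members whose interaction of line and treatment passed, the dashed line marks equal response, and NDUFS1 is the only member called up in HT55 and down in SW948, a contrast that under plain totals keeps the SW948 call alone.

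Side by side, 16 members rose in both lines under TMM, 3 fell in both (NDUFA5, NDUFB9 and NDUFS6), 1 rose in HT55 and fell in SW948 (NDUFS1), 8 rose and 7 fell in SW948 without a call in HT55, 1 rose and 2 fell in HT55 without a call in SW948, and 6 passed in neither (NDUFA10, NDUFA12, NDUFB6, NDUFV1, CYC1 and COX6C). Of the 11448 genes tested in both lines, 19.9% rose in both, against 36.4% of the members, and 19.5% fell in both, against 6.82% of the members. These shares were counted under TMM alone. Of the 16 that rose in both, only NDUFA1, SDHA, SDHD, UQCRC2, COX6B1 and COX7B kept both calls under plain totals. The 3 that fell in both kept theirs. A rise in HT55 with a fall in SW948 was found for 4.05% of all genes. Calls in SW948 without one in HT55 made up 16.5% (up) and 18.2% (down) of all genes, which among the members were 18.2% and 15.9%. Calls in HT55 without one in SW948 made up 4.24% (up) and 3.92% (down). A call in 1 line alone does not show a difference between lines. Among the 8 that rose in SW948 alone, the interaction passed for NDUFB4, NDUFS4, NDUFS8, UQCRB and COX5B and not for NDUFA4, NDUFA9 or NDUFS3. Among the 7 that fell in SW948 alone it passed for NDUFA8, NDUFB1, NDUFB10, NDUFV2 and SDHC, with NDUFB3 at -0.27 ± 0.14 (SE, adjusted p = 0.096) and NDUFB8 at -0.39 ± 0.16 (SE, adjusted p = 0.053). NDUFA6, which fell in HT55 alone, had an interaction of 0.40 ± 0.11 (SE, adjusted p = 0.0035), and SDHB, which rose in HT55 alone, of -0.29 ± 0.12 (SE, adjusted p = 0.044).

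The lines also differed before treatment. Comparing SW948 DMSO with HT55 DMSO, 12 members were higher in SW948 and 19 lower (42.6% and 41.6% of 12820 genes), and under plain totals 23 were higher and 15 lower (51.0% and 33.7%). The balance of directions over the members thus turned with the scaling, whereas 10 higher and 15 lower calls held under TMM, plain totals and the GC correction, or 22.7% and 34.1% of the members beside 40.3% and 33.7% of all genes. Lower in SW948 by most were NDUFA6, at 22.3 ± 1.55 CPM against 82.4 ± 0.489 CPM in HT55 (SD, n = 4), a log2 difference of -1.88 ± 0.057 (SE, adjusted p = 1.1e-19), and COX5A, at 93.4 ± 4.14 against 219 ± 4.40 CPM and -1.22 ± 0.042 (SE, adjusted p = 1.3e-18). Further members lower in SW948 had log2 differences of -1.17 ± 0.047 for UQCRC2, -1.07 ± 0.062 for NDUFA1, -0.94 ± 0.047 for COX4I1, -0.83 ± 0.047 for SDHB, -0.78 ± 0.050 for NDUFA8 and -0.68 ± 0.046 for UQCRFS1. Members higher in SW948 had 0.73 ± 0.047 for SDHD, 0.70 ± 0.053 for CYC1, 0.54 ± 0.046 for SDHA, 0.51 ± 0.053 for NDUFS8, 0.49 ± 0.043 for COX6C and 0.46 ± 0.042 for COX8A. By complex, the calls under TMM were 6 higher and 9 lower in complex I, 2 and 1 in complex II, 1 and 5 in complex III and 3 and 4 in complex IV. The calls for NDUFA2, NDUFB5 and COX7C, all higher in SW948, were lost without HT55 DMSO replicate 3, that for NDUFA2 also without SW948 DMSO replicate 1 and that for NDUFB5 also without HT55 DMSO replicate 2 (adjusted p of 0.059 to 0.073 for NDUFA2, 0.071 to 0.093 for NDUFB5 and 0.065 for COX7C). Line and any difference in how the lines were handled cannot be told apart.

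UQCRC2, NDUFA1 and COX4I1 were low in SW948 DMSO and rose there with itraconazole. UQCRC2 had 238 ± 12.9 CPM in SW948 itraconazole (SD, n = 4) beside 235 ± 10.3 in HT55 DMSO, and NDUFA1 had 55.3 ± 8.55 beside 49.5 ± 1.95, so that the ranges of both genes overlapped between these groups. COX4I1 at 267 ± 6.35 CPM remained under 326 ± 1.84 CPM. NDUFA6 and COX5A, the members furthest below HT55, had 22.0 ± 1.73 and 128 ± 9.76 CPM in SW948 itraconazole. The comparison shares the SW948 DMSO libraries with the response itself and is a description of levels.

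The remaining genes of the pathway were taken as lists from general knowledge, and each is given by its counts under TMM, with the plain totals in brackets. These counts stand beside all genes tested, of which 27.5% rose and 26.5% fell in HT55 (18.8% and 38.8%) and 38.9% rose and 41.3% fell in SW948 (25.1% and 54.6%). Of 16 tested nuclear subunits of complexes I, III and IV outside the 44 members, 5 rose and 1 fell in HT55 (2 and 5), and 4 rose and 6 fell in SW948 (2 and 12). COX7A2, a complex IV subunit, rose most in HT55 at 0.52 ± 0.12 (SE, adjusted p = 0.0048), and UQCRH, the hinge protein of complex III, rose most in SW948 at 1.04 ± 0.059 (SE, adjusted p = 1.7e-09). NDUFC2 fell most in HT55 at -0.37 ± 0.11 (SE, adjusted p = 0.013) and NDUFA11 in SW948 at -0.76 ± 0.13 (SE, adjusted p = 6.5e-05), both membrane-arm subunits of complex I. Of 18 ATP synthase genes 4 rose and 4 fell in HT55 (0 and 6), and 8 rose and 8 fell in SW948 (5 and 11). ATP5F1D, a subunit of its central stalk, rose most in HT55 at 0.37 ± 0.084 and ATP5IF1, the inhibitor of ATP hydrolysis, fell most at -0.51 ± 0.076. In SW948 the same places were held by ATP5MK at 0.84 ± 0.072 and ATP5MF at -0.71 ± 0.075, small subunits of the membrane part. Of 8 alternative subunit isoforms, 2 were tested in HT55 with 1 that fell (also 1 under plain totals), and 3 in SW948 with 2 that rose (also 2). COX7A2L, which helps to join complexes III and IV, rose most in SW948 at 0.82 ± 0.076.

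Most subunits that mitochondrial DNA encodes rose in both lines under TMM. Of 13 tested, 11 rose and 1 fell in HT55 (8 and 1), with a median log2 fold change of 0.52, and 8 rose and 1 fell in SW948 (6 and 1), with a median of 0.73. MT-CO1, the catalytic subunit of complex IV, rose most in HT55 at 0.76 ± 0.073 and MT-ND5 of complex I in SW948 at 1.71 ± 0.15. MT-ND2 fell in HT55 at -0.23 ± 0.066 and MT-CYB, cytochrome b of complex III, in SW948 at -0.95 ± 0.22. The 13 subunits together took 1.85% to 1.96% of the gene counts in HT55 DMSO and 2.25% to 2.43% in HT55 itraconazole. In SW948 they took 0.840% to 1.20% with DMSO and 1.08% to 1.93% with itraconazole, and these groups overlapped.

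Factors that assemble the complexes fell more often than they rose. Of 45 tested, 6 rose and 22 fell in HT55 (1 and 27), with a median log2 fold change of -0.20, and 11 rose and 28 fell in SW948 (5 and 33), with a median of -0.52. The shares that fell were 48.9% in HT55 and 62.2% in SW948 under TMM, where 26.5% and 41.3% of all genes fell, and 60.0% and 73.3% under plain totals, where 38.8% and 54.6% of all genes did. ACAD9, needed for complex I assembly, fell most in SW948 at -2.73 ± 0.13, and LYRM7, which delivers the Rieske protein of complex III, fell most in HT55 at -0.90 ± 0.10. ECSIT, a complex I assembly factor, rose most in HT55 at 0.85 ± 0.11 and COX10, an enzyme of haem A synthesis for complex IV, in SW948 at 1.04 ± 0.082. Among 14 genes of cytochrome c and coenzyme Q synthesis, 2 rose and 7 fell in HT55 (2 and 7), and 2 rose and 11 fell in SW948 (1 and 11). COQ2, an early enzyme of coenzyme Q synthesis, fell most in both lines, at -0.79 ± 0.14 and -1.96 ± 0.17, while COQ8A rose most in HT55 at 0.88 ± 0.091 and COQ10B in SW948 at 1.28 ± 0.10. Among 15 regulators of mitochondrial biogenesis 4 rose and 4 fell in HT55 (3 and 6), and 7 rose and 5 fell in SW948 (3 and 7). ESRRA, an orphan nuclear receptor that drives respiratory genes, rose most in HT55 at 0.89 ± 0.069 and YY1, whose core motif was among those searched, in SW948 at 1.40 ± 0.090. GABPB2, a partner of the ETS factor GABPA, fell most in both, at -0.93 ± 0.10 and -2.22 ± 0.22.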

How the data were processed

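Total RNA from 16 libraries (2 lines, itraconazole at 5 µM or DMSO, 4 libraries a group) had been sequenced from TruSeq libraries as single-end reads of 50 bases. The authors aligned the reads to hg19, and the deposited files hold raw read counts per Ensembl gene for each library, with no normalisation. The submitters' processing notes name TopHat, HTSeq and DESeq without versions. The annotation release and the strand setting are not given in the sources used here. Depth was 8269406 to 11110814 gene counts per library, without molecular identifiers, so that depth speaks to counting error only. No libraries of a group agreed within sampling noise (mean chi-square per gene of 1.43 to 40.4 between pairs).

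The members and lists were chosen with earlier results of these data known. Of 258 list genes, 3 were not matched. Counts were tested with edgeR 4.0.16 (R 4.3.3), using TMM, filterByExpr and the quasi-likelihood test, on 8 libraries per line, on the 8 DMSO libraries for the lines, and on all 16 for the interaction, with Benjamini-Hochberg adjustment over all genes tested and a threshold of 0.05. The SE of a log2 fold change was its size over the root of its F value. Printed CPM use TMM factors over all 16 libraries, and RPKM use canonical transcript lengths of GENCODE v44 mapped to GRCh37. Promoters came from RefSeq. The script was tested on simulated data. Of genes given a log2 change of 0.5, it recovered 60% in HT55, 66% in SW948, 34% for the interaction and 80% for the lines. At a change of 1.0 it recovered 80%, 90%, 70% and 92%. The simulation changed 200 genes drawn at random from those tested, whereas in the HT55 data 27.5% of genes rose and 26.5% fell. These rates are therefore not rates of recovery for the members. A member without a call may thus still have changed. Members were given in full by rule: the highest and lowest fold change of each complex in each line and the 5 smallest interaction p-values, and for each list the called gene that rose and the called gene that fell most in each line, at a mean of at least 3 log2 CPM. Alternatives were plain totals, DESeq2 1.42.0 and its size factors, other filters, a stricter threshold, a GC and length correction, leaving out libraries and a replicate block.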

Additional observations from a re-analysis of the deposited data

Results flagged for a closer look

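The response to itraconazole differed between the lines, by the test of the difference itself, for 23 members, 15 higher and 8 lower in SW948, where 24.8% and 29.1% of all genes tested were called higher and lower. Of these calls, 4 higher and 8 lower also held under plain totals and the GC and length correction. Values are the log2 fold change in SW948 minus that in HT55 under TMM, with edgeR's quasi-likelihood test. In complex I it was 0.66 for NDUFA1, 0.40 for NDUFA6, 0.49 for NDUFB4, 0.44 for NDUFS4, 0.41 for NDUFS7 and 0.29 for NDUFS8. It was -0.48 for NDUFA8, -0.47 for NDUFB1, -0.44 for NDUFB10, -0.77 for NDUFS1 and -0.41 for NDUFV2. In complex II it was -0.29 for SDHB and -0.85 for SDHC. In complex III it was 0.59 for UQCRC2, 0.70 for UQCRB, 0.39 for UQCRFS1 and -0.25 for CYC1. In complex IV it was 0.34 for COX4I1, 0.32 for COX5B, 0.26 for COX6A1, 0.45 for COX6B1, 0.65 for COX7C and 0.45 for COX8A. With the GC and length correction 1 complex IV member was called higher and 1 lower.

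Single libraries stood far from the other 3 of their group in 12 of 200 groups of values, where about 1 in 20 is given by chance, or 10 of 200. The figure given for each is the distance to the nearest library over the distance between the highest and lowest. In HT55 DMSO, NDUFB4 was high in replicate 3 (0.848, with 67.7 CPM against 66.8 to 66.9), NDUFS3 was high in replicate 2 (0.899, with 59.1 CPM against 56.0 to 56.4) and SDHC was high in replicate 4 (0.842, with 83.2 CPM against 71.2 to 73.1). COX4I1 was low in replicate 2 there (0.960, with 323 CPM against 327 in the others), and the complex IV share of gene counts was low in replicate 1 (0.835, with 0.152% against 0.155% to 0.156%). In HT55 itraconazole, NDUFB1 was low in replicate 1 (0.944, with 16.6 CPM against 20.1 to 20.3) and COX5B in replicate 4 (0.885, with 213 CPM against 228 to 230). In SW948 DMSO, replicate 2 was low for COX5B (0.931, with 214 CPM against 238 to 240), COX6B1 (0.853, with 135 CPM against 153 to 155) and COX8A (0.831, with 154 CPM against 162 to 164), and NDUFS4 was high in replicate 1 (0.881, with 28.0 CPM against 23.8 to 24.3). In SW948 itraconazole, COX4I1 was high in replicate 4 (0.866, with 276 CPM against 262 to 264).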

How the results depend on the processing

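Scaling moved the counts most. Under plain library totals 7 members rose and 13 fell in HT55, 15 rose and 20 fell in SW948, the interaction called 6 higher and 13 lower in SW948, and 23 members were higher in SW948 DMSO. Complex medians of the log2 fold change under plain totals were -0.18 for complex I and 0.033 for complex III in HT55, and -0.35 for complex I, -0.044 for complex II (reversed), 0.13 for complex III and 0.25 for complex IV in SW948. With the GC and length correction complex I had -0.085 and complex IV 0.40 in SW948, and the interaction called 8 higher and 13 lower. At an adjusted p under 0.01, 8 members rose and 2 fell in HT55, and 9 interactions were higher. For this threshold, the other filters, the replicate block and the fits without 1 library, the shares of all genes are not given here. The counts of members under these settings are therefore not compared with those of other genes. With gene totals that leave out the highest and the mitochondrial genes, the members' share was 0.495%, 0.514%, 0.498% and 0.505% in HT55 DMSO, HT55 itraconazole, SW948 DMSO and SW948 itraconazole. Without 1 library, 2 to 6 members fell in HT55.

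Plain totals turned the sign in HT55 for NDUFA4 (-0.10), NDUFA9 (-0.082), NDUFA12 (-0.13), NDUFB4 (-0.096), NDUFS3 (-0.038), NDUFS4 (-0.17), NDUFS8 (-0.078), UQCRB (-0.16), CYC1 (-0.0020), COX5B (-0.13) and COX6C (-0.0017). In SW948 they did so for NDUFA4 (-0.12), NDUFA9 (-0.035), NDUFB6 (-0.32), NDUFS3 (-0.012), UQCRC1 (-0.0012) and COX5B (-0.016), and between the DMSO groups for NDUFA4 (0.0034) and NDUFA10 (0.034). The GC and length correction turned NDUFA8 (0.044), NDUFB3 (0.024), NDUFB6 (0.11) and SDHC (0.031) in HT55, NDUFA10 (0.058) in SW948 and NDUFB5 (-0.026) between the DMSO groups. Going from TMM to plain totals moved all members of a comparison by nearly the same amount. The median of all genes went from -0.015 to -0.18 in HT55 and from -0.025 to -0.35 in SW948. Between the DMSO groups it went from 0.012 to 0.20. The members turned by plain totals were those with TMM values within that shift of 0. Why the GC and length correction turned members was not tested. Under DESeq2, its size factors, other filters on low counts and totals without the highest genes, every count of called members stayed within 1.5 times its main value. With 10 counts in every library 13 fell in SW948 and 16 were higher in SW948 DMSO, and without a filter the interaction called 13 higher and 6 lower.

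Treated and control libraries of the same number deviated together little (r from -0.038 to 0.15 in HT55 and from -0.00079 to 0.14 in SW948), and 2 of 8 and 3 of 8 libraries correlated best with their own number. The highest r in each line, 0.15 and 0.14, was that of replicate 3. With 4 libraries a group these values cannot settle whether the numbers pair the libraries, and the main fits do not pair them. With a replicate block, NDUFA2 in HT55 (adjusted p = 0.054) and the interactions of SDHB (0.051) and CYC1 (0.060) lost their calls by edgeR's test. The replicate block with the GC and length correction left 3 that fell in HT55 and 8 higher and 13 lower interactions, with NDUFA8 at 0.044, NDUFB3 at 0.023, NDUFB6 at 0.11 and SDHC at 0.032 in HT55 and NDUFA10 at 0.058 in SW948.

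The lowest member count of 49 limits the precision of the low members, and reads with several alignments, left out of the counts, limit those with pseudogenes.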

Other observations

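Neighbouring pathways were counted in the same fits, under TMM with plain totals in brackets, beside all genes at 27.5% up and 26.5% down in HT55 and 38.9% up and 41.3% down in SW948. More glycolytic genes rose than fell in both lines, 11 of 17 with none that fell in HT55 (8 up and 4 down) and 12 with 2 that fell in SW948 (7 and 5). ALDOC, a brain-enriched aldolase, rose most in both, at 3.52 ± 0.18 and 4.96 ± 0.12 on the log2 scale (edgeR's quasi-likelihood test), and PFKL, the liver form of phosphofructokinase, fell most in SW948 at -0.83 ± 0.081. Of 16 genes of the TCA cycle and pyruvate dehydrogenase, 7 rose and 2 fell in HT55 (2 and 4), and 7 rose and 4 fell in SW948 (2 and 10). IDH3G, a subunit of isocitrate dehydrogenase, rose most in both at 0.72 ± 0.091 and 0.79 ± 0.077, while DLD fell most in HT55 at -0.37 ± 0.072 and PDHB in SW948 at -1.22 ± 0.10, both part of the pyruvate dehydrogenase complex.

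Mitochondrial ribosomal proteins, which translate the mitochondrially encoded subunits, fell more often than they rose. Of 73 tested, 9 rose and 36 fell in HT55 (4 and 47), and 18 rose and 36 fell in SW948 (10 and 51). Under TMM 49.3% fell in each line, beside 26.5% of all genes in HT55 and 41.3% in SW948, and under plain totals 64.4% and 69.9% fell, beside 38.8% and 54.6%. MRPS28 fell most in HT55 at -0.79 ± 0.12 and MRPS16 in SW948 at -2.07 ± 0.093, while MRPS6 rose most in HT55 at 1.34 ± 0.36 and MRPL2 in SW948 at 1.05 ± 0.078. Of 10 epithelial markers 6 rose and none fell in HT55 (5 and 1), and 5 rose and 5 fell in SW948 (4 and 5), with KRT20 of differentiated cells up most in HT55 at 1.13 ± 0.14 and KRT8 in SW948 at 1.03 ± 0.13. CDX2, an intestinal transcription factor, fell most in SW948 at -0.88 ± 0.16. Of 2 tested markers of other cell types none was called in HT55 and both rose in SW948, CD68 by 2.39 ± 0.11.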
